A study of Saccharomyces cerevisiae with 2 samples.

Results

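The mitochondrial carrier family and the metabolite channels of budding yeast were followed through a paraquat treatment. The set holds 30 genes, taken by name from a fixed list of 24 carriers and carrier-like proteins of the mitochondrial and peroxisomal membranes, the outer membrane fusion factor UGO1, the 3 subunits of the pyruvate carrier and the 2 porins. All 30 were found among the 6142 named genes measured, and all 30 passed the filter on low values, a mean of at least 50 normalized reads. The ADP/ATP carriers, the iron carriers and the carriers SFC1 and CRC1 were not members by the rule and are described only beside the set.

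RNA was sequenced from 2 cultures of the laboratory strain BY4741 in mid-log phase in YPD, a rich glucose medium. One culture (PQ) had received 2.5 mM paraquat for 8 h, and the other (WT) is labelled as having no treatment. Paraquat is a redox-cycling herbicide that makes superoxide inside cells. Each group is 1 library, so no difference below has a replicate check, no test between groups is possible, and whether the groups overlap cannot be asked. The labels give no time in culture for WT, so time and paraquat cannot be told apart. On named genes there were 165264107 reads in PQ and 164909400 in WT.

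Carriers of this family sit mostly in the inner mitochondrial membrane, which small charged molecules cannot cross on their own, and exchange one substrate for another across it. They link the cytosol to the matrix for the tricarboxylic acid cycle, for amino acid synthesis split between both compartments, and for the import of phosphate, nucleotides and cofactors. The pyruvate carrier is a separate small family, and the porins are barrels through which metabolites pass the outer membrane. In cells growing on glucose much of this traffic feeds biosynthesis rather than respiration.

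No member was 2-fold changed. The members were chosen with earlier results of these data known, and the carriers left out include some past 2-fold. Of the 30 members 0 were at least 2-fold higher in PQ, against 3.08% of all genes past the filter, and 0 were at least 2-fold lower, against 1.52%. At 1.5-fold, 4 members were lower in PQ (POR1, OAC1, YHM2 and AGC1), against 5.88% of all genes, and 0 were higher, against 7.75%. In sign, 22 members lay below 0 and 8 above, where 50.3% of all genes lay below. The median log2 change of the members was -0.19, beside -0.0029 for all genes past the filter, and the median size of change without sign was 0.23 for members and 0.22 for all genes. The spread thus ran from a log2 change of -0.74 for POR1 to 0.51 for PIC2.

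These values use the deposited scaling, under which the median gene is near 0. Scaled to total reads on named genes, every log2 change moves up by 0.26. The members' median then turns to 0.068 and 12 members remain below 0, against 21.4% of all genes, so 10 of the 22 lower members change sign. At 1.5-fold, that scaling leaves 0 members lower, against 2.36% of all genes, and 2 higher (PIC2 and MPC3), against 16.9%. Directions below are therefore relative to the median gene. The members' summed signal shows the same dependence: it was 440791 normalized reads in PQ and 512174 in WT, while the members' share of all reads on named genes was 0.292% in PQ and 0.284% in WT.

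**Figure D1:**
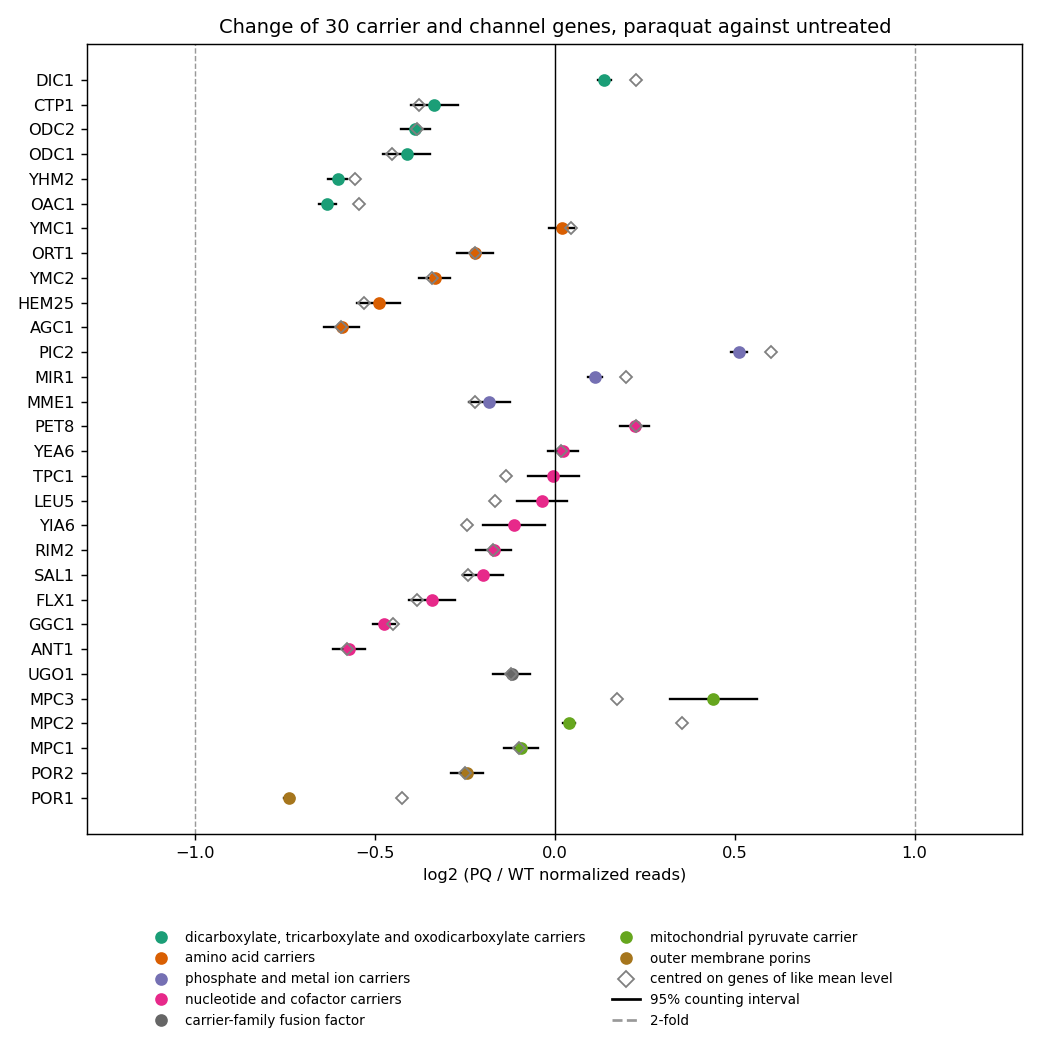
Log2 ratio of PQ to WT normalized reads (x axis) for each of the 30 genes (y axis), grouped by role. Filled points are the values with 95% counting intervals, open diamonds the values centred on genes of like mean level, and dashed lines mark 2-fold. All filled points lie between -0.74 and 0.51, inside the 2-fold lines.

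An adjusted p under 0.05 was reached by 0 members in the authors' deposited table and by 0% of all 6142 genes, and the smallest adjusted p over all genes was 0.999. At an unadjusted p under 0.05 the authors' deposited table holds 130 genes (2.12%), and 0 of them are members. The smallest member value there is 0.120, for POR1. Intervals given below are 95% exact binomial (Clopper-Pearson) intervals on the split of reads between both libraries. They cover counting error only, treat PCR copies as independent molecules and leave out all variation from one culture to another. Members held 906 to 101949 reads per library, so the intervals are narrow. Under the deposited scaling those of 26 of the 30 leave out a ratio of 1. The share over all genes was not counted, and the median gene held 10224 reads in PQ and 8441 in WT. The count of 26 is therefore not read as a trait of the members.

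Levels also depend on gene length, so levels of different genes are set side by side per kilobase. In PQ the highest were MPC2 at 146969 normalized reads per kilobase, POR1 at 78501 and DIC1 at 51541, and the lowest was YIA6 at 1885. In WT the same 3 genes led, with MPC2 at 143088, POR1 at 131036 and DIC1 at 46852, and YIA6 was again lowest at 2040. The first 3 places and the last were thus held by the same genes in both libraries. PIC2 held rank 4 in PQ and rank 6 in WT, and so passed MIR1 and OAC1, which took ranks 5 and 6 in PQ and ranks 4 and 5 in WT.

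**Figure D2:**
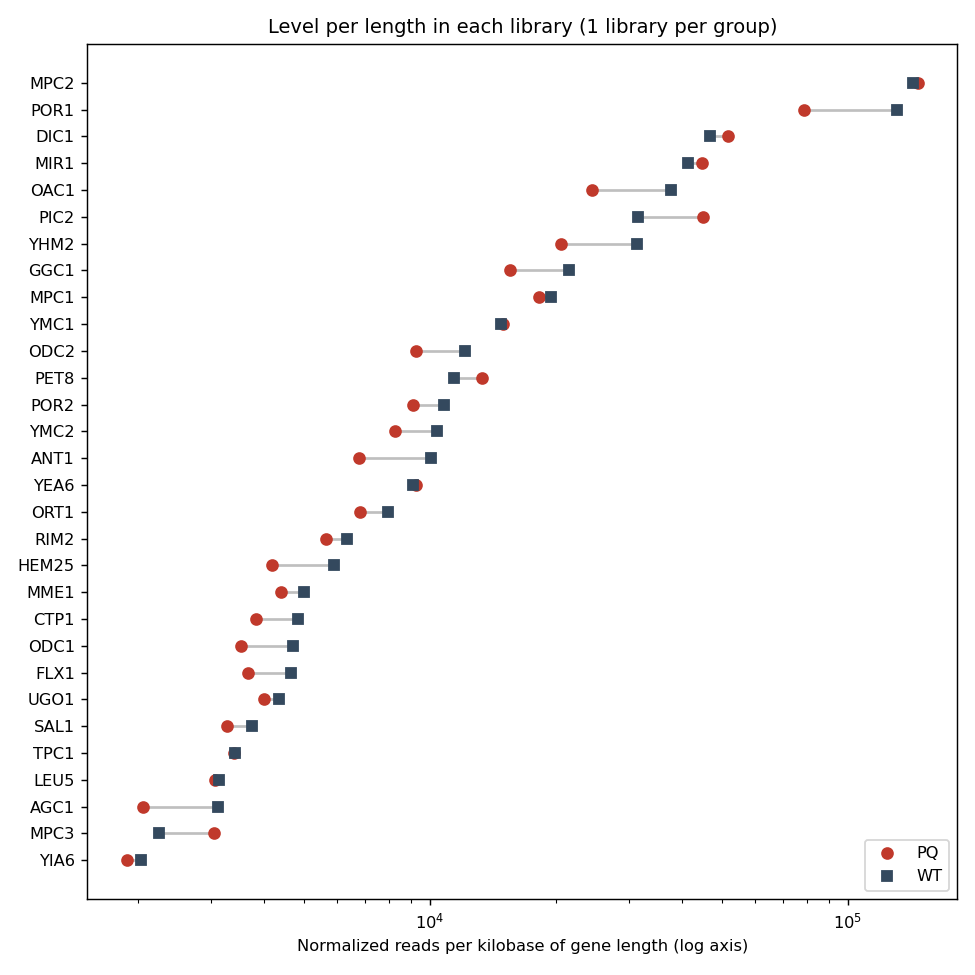
Normalized reads per kilobase of gene length (x axis, log scale) of the 30 genes (y axis, ordered by WT), with circles for PQ and squares for WT, 1 library each. Members span from 1885 to 146969 in PQ and from 2040 to 143088 in WT, and the widest gap between both symbols is that of POR1.

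The porins stood lowest by median of the roles with more than 1 gene, at a log2 change of -0.49. That place was lost when each gene was centred on genes of like mean level, where the porins were at -0.34, the di- and tricarboxylate carriers at -0.42 and the amino acid carriers also at -0.34. POR1 (YNL055C), the main voltage-dependent anion channel of the outer membrane, had 66882 normalized reads in PQ and 111643 in WT. It was 1.67-fold lower in PQ (1.65 to 1.69), and 3.37% of all genes lay lower still. POR2 (YIL114C), its less abundant paralog, had 7727 normalized reads in PQ and 9152 in WT, which is 1.18-fold lower in PQ (1.15 to 1.22) and turns slightly above 0 (log2 0.015) under total read scaling. POR1 alone makes up 44760 of the 71382 normalized reads by which the members' sum was lower in PQ. The highest of 10 classes of mean level, which holds POR1, had a median of -0.31, and POR1 centred on that class was at -0.42. Means in that class ran from 49621 to 4062613 normalized reads, and the class below it had a median of -0.087. The part of abundance in the value of POR1 was not tested.

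The carriers of di- and tricarboxylates were lower with 1 exception. Of these 6 genes 5 lay below 0, against 50.3% of all genes, and the median was -0.40. OAC1 (YKL120W), which carries oxaloacetate and sulfate and also exports the leucine precursor isopropylmalate, had 23773 normalized reads in PQ and 36865 in WT. It was 1.55-fold lower in PQ (1.53 to 1.58). YHM2 (YMR241W), a citrate and 2-oxoglutarate carrier, had 19438 normalized reads in PQ and 29544 in WT and was 1.52-fold lower (1.49 to 1.55). Both kept a negative log2 change when scaled to total reads, -0.37 for OAC1 and -0.35 for YHM2.

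ODC1 (YPL134C) and ODC2 (YOR222W) exchange 2-oxoadipate, a lysine intermediate, for 2-oxoglutarate. ODC1 had 3304 normalized reads in PQ and 4397 in WT, 1.33-fold lower in PQ. ODC2 had 8568 normalized reads in PQ and 11215 in WT, 1.31-fold lower in PQ. The citrate carrier gene CTP1 (YBR291C) had 3452 normalized reads in PQ and 4355 in WT, 1.26-fold lower in PQ. DIC1 (YLR348C), which exchanges dicarboxylates such as malate for phosphate, was the exception, with 46232 normalized reads in PQ and 42026 in WT. DIC1 was 1.10-fold higher in PQ (1.09 to 1.11).

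Among amino acid carriers 4 of 5 genes lay below 0, against 50.3% of all genes, with a median of -0.33. AGC1 (YPR021C), the aspartate-glutamate carrier of the malate-aspartate shuttle, had 5583 normalized reads in PQ and 8417 in WT. It was 1.51-fold lower in PQ (1.46 to 1.56), so its interval, like that of YHM2, spans the 1.5-fold mark. HEM25 (YDL119C), which imports glycine for the first step of heme synthesis, had 3868 normalized reads in PQ and 5434 in WT and was 1.40-fold lower (1.35 to 1.46). The ornithine carrier gene ORT1 (YOR130C), which serves arginine synthesis, had 5976 normalized reads in PQ and 6967 in WT, 1.17-fold lower in PQ, a direction lost under total read scaling (log2 0.038). The carrier genes YMC1 and YMC2 parted, as given with the pairs.

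Carriers of phosphate and metal ions held the highest member. PIC2 (YER053C), which carries copper as well as phosphate into the matrix, had 40532 normalized reads in PQ and 28407 in WT. It was 1.43-fold higher in PQ (1.41 to 1.45), and 9.34% of all genes were higher than that. MIR1 (YJR077C), the main phosphate carrier, had 41970 normalized reads in PQ and 38859 in WT, 1.08-fold higher in PQ (1.07 to 1.10). MME1 (YMR166C), a magnesium exporter, had 4869 normalized reads in PQ and 5524 in WT, 1.13-fold lower in PQ, with the sign turned under total read scaling (log2 0.077).

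Nucleotide and cofactor carriers ranged widely, with 8 of 10 genes below 0, against 50.3% of all genes, and a median of -0.14. ANT1 (YPR128C), the adenine nucleotide carrier of the peroxisome, had 6692 normalized reads in PQ and 9950 in WT and was 1.49-fold lower in PQ (1.44 to 1.53). GGC1 (YDL198C), which exchanges GTP and GDP, had 14004 normalized reads in PQ and 19460 in WT, 1.39-fold lower in PQ. FLX1 (YIL134W), linked to FAD transport, had 3434 normalized reads in PQ and 4353 in WT, 1.27-fold lower in PQ. These 3 were the lowest of the role and its only genes below 0 under total read scaling, at log2 -0.31, -0.22 and -0.083. Under that scaling 21.4% of all genes lay below 0.

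At the other end, PET8 (YNL003C), which imports S-adenosylmethionine, the methyl donor, had 11394 normalized reads in PQ and 9773 in WT. PET8 was 1.17-fold higher in PQ (1.13 to 1.20) and stayed above 0 under total read scaling and class centring. The thiamine pyrophosphate carrier gene TPC1 (YGR096W) had 3218 normalized reads in PQ and 3229 in WT, and LEU5 (YHR002W), needed for coenzyme A in the matrix, had 3286 in PQ and 3368 in WT. Their intervals of the fold span 1, at 0.949 to 1.05 for TPC1 and 0.929 to 1.02 for LEU5. SAL1 (YNL083W), a calcium-regulated ATP-Mg and phosphate carrier, had 4845 normalized reads in PQ and 5565 in WT. RIM2 (YBR192W), a pyrimidine nucleotide carrier, had 6386 in PQ and 7184 in WT. UGO1 (YDR470C), which acts in outer membrane fusion, had 6054 in PQ and 6583 in WT. SAL1, RIM2 and UGO1 were 1.15-fold, 1.12-fold and 1.09-fold lower in PQ, and all 3 lay above 0 under total read scaling.

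The pyruvate carrier genes were close to their WT levels under the deposited scaling, apart from the gene of lowest level. MPC1 (YGL080W), the subunit common to both forms of the complex, had 7175 normalized reads in PQ and 7661 in WT, 1.07-fold lower in PQ. MPC2 (YHR162W), the partner used in fermenting cells, had 57318 normalized reads in PQ and 55804 in WT, 1.03-fold higher in PQ. MPC3 (YGR243W), the partner of respiring cells, had 1346 normalized reads in PQ and 992 in WT and was 1.36-fold higher in PQ (1.25 to 1.48). Per kilobase MPC2 exceeded MPC3 48.2-fold in PQ and 63.6-fold in WT. MPC3 was the lowest member by total reads, and genes of its class of mean level had a median log2 change of 0.27. Centred on that class MPC3 was at 0.17, and MPC2 centred on its own class was at 0.35. Under total read scaling MPC1, MPC2 and MPC3 lay at log2 0.16, 0.30 and 0.70, so the sign of MPC1 turned.

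Within 6 pairs of genes of like function, 4 differed in log2 change by more than 0.3 and 2 by less. POR1 minus POR2 was -0.50 (-0.54 to -0.45), and POR1 took 89.6% of the pair's signal per kilobase in PQ and 92.4% in WT. PIC2 minus MIR1 was 0.40 (0.37 to 0.43), which left both at nearly the same level in PQ, where PIC2 took 50.03% of the pair, against 43.1% in WT. MPC3 minus MPC2 was also 0.40 (0.28 to 0.52), but the sign turned to -0.18 once each gene was centred on its class of mean level. The same centring brought POR1 minus POR2 to -0.17.

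YMC1 (YPR058W) minus YMC2 (YBR104W), a pair of inner membrane carriers, was 0.35 (0.30 to 0.41). YMC1 had 13824 normalized reads in PQ and 13645 in WT, and YMC2 had 8179 in PQ and 10316 in WT. The NAD carrier genes YEA6 (YEL006W) and YIA6 (YIL006W) differed by 0.14 (0.042 to 0.23), with YEA6 at 9346 normalized reads in PQ and 9199 in WT and YIA6 at 2115 in PQ and 2289 in WT. Class centring raised that difference to 0.26. ODC1 minus ODC2 was -0.024 (-0.10 to 0.052), so a difference within this pair was not detectable at this depth. Identity between paralogs reached 74.6% over part of the gene for MPC2 and MPC3 and 64.4% to 67.1% for the other pairs with a match, below the 95% used here for near-identical copies, and no member overlapped another gene of the RefSeq annotation.

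**Figure D3:**
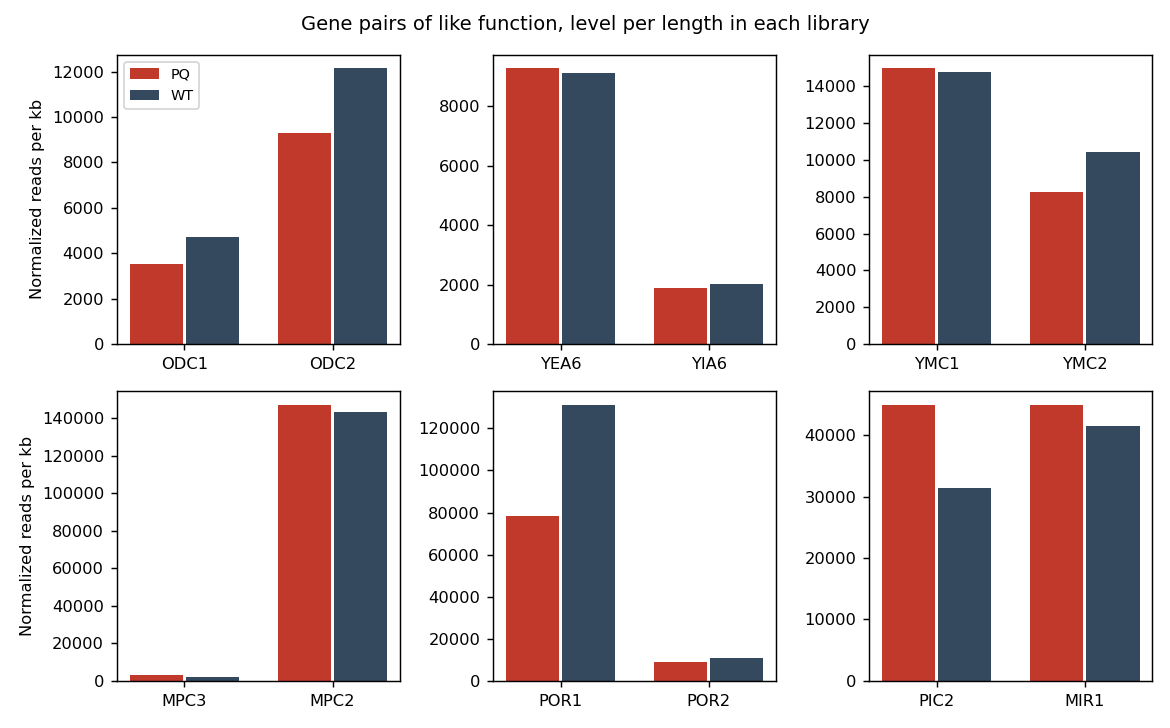
Normalized reads per kilobase (y axis, from 0, a separate scale in each panel) for 6 pairs of genes of like function, with PQ bars left of WT bars, 1 library each and no error bars. POR1 is lower in PQ while POR2 differs less, and PIC2 reaches the level of MIR1 in PQ.

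Some carriers outside the set were past 2-fold. Of 11 other carrier or carrier-like genes 3 were at least 2-fold higher in PQ, against 3.08% of all genes past the filter. At least 2-fold lower was 1, against 1.52%, and the median was 0.082. Those past 2-fold belong to groups that the rule left out, with earlier results of these data known. The contrast with the set is therefore no test of the carrier family. CRC1, the carnitine carrier, had 954 normalized reads in PQ and 246 in WT, 3.87-fold higher. SFC1, the succinate-fumarate carrier, had 702 normalized reads in PQ and 195 in WT, 3.60-fold higher. AAC3, the ADP/ATP carrier of cells short of oxygen, had 1856 normalized reads in PQ and 5006 in WT, 2.70-fold lower in PQ (2.56 to 2.84). The third higher gene, named after its value was seen, was the iron carrier gene MRS4, at 20124 normalized reads in PQ and 7965 in WT.

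Genes that make or use the carriers' substrates were set beside them in 13 further lists. For OAC1, the leucine list had 2 of 6 genes at least 2-fold lower in PQ, against 1.52% of all genes, and a median of -0.031. LEU1, the isomerase acting on isopropylmalate, had 51220 normalized reads in PQ and 192803 in WT, and the mitochondrial aminotransferase BAT1 had 63037 in PQ and 141363 in WT. For ODC1 and ODC2, the lysine list had 7 of 8 genes below 0, against 50.3% of all genes, and a median of -0.68. At least 2-fold lower was 1 gene, against 1.52%. It was the saccharopine reductase gene LYS9, with 12914 normalized reads in PQ and 37267 in WT. The lysine list had the lowest median of the 14 lists.

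For the citrate and 2-oxoglutarate carriers the enzymes lay on both sides, with a median of 0.30. At least 2-fold higher were 4 of 11, against 3.08% of all genes, and 1 was at least 2-fold lower, against 1.52%. IDH1 and IDH2, the subunits of NAD-dependent isocitrate dehydrogenase, were 4.65-fold and 4.33-fold higher in PQ, and the aconitase gene ACO1 was 2.45-fold higher. The other 2 of these 5, named after their values were seen, were the peroxisomal citrate synthase gene CIT2 at 2.07-fold higher and the glutamate dehydrogenase gene GDH1 at 2.35-fold lower. The carriers YHM2 and CTP1 lay below 0, as did ODC1 and ODC2, which also carry 2-oxoglutarate. Of the 11 enzymes 4 lay below 0, against 50.3% of all genes. For the pyruvate carrier, 1 of 7 genes was at least 2-fold lower, against 1.52% of all genes, and the median was -0.40. That gene was LAT1, the acetyltransferase subunit of pyruvate dehydrogenase, with 52842 normalized reads in PQ and 106799 in WT. LAT1, BAT1 and GDH1 lay within 2-fold under total read scaling, at log2 changes of -0.76, -0.91 and -0.97. The same scaling took the pyruvate carboxylase gene PYC1 (log2 1.03) and the cytosolic isocitrate dehydrogenase gene IDP2 (log2 1.15) past 2-fold higher, and both are named after their values were seen.

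For PET8, a chosen list of 6 genes that make or use S-adenosylmethionine lay wholly below 0, against 50.3% of all genes. Its median was -0.48, while PET8 itself was above 0. Under total read scaling the list median was -0.22, and SAM1 (named after its value was seen) turned from -0.049 to 0.21. BIO2, the biotin synthase, was the 1 member of that list at least 2-fold lower, against 1.52% of all genes. It had 2627 normalized reads in PQ and 7541 in WT. In the remaining lists 0 genes were 2-fold changed under the deposited scaling. Under total read scaling 2 were, both in the cofactor list, the external NADH dehydrogenase genes NDE1 (log2 1.19) and NDE2 (log2 1.11, named after its value was seen). The medians under the deposited scaling were -0.12 for malate and aspartate enzymes (MAE1, the malic enzyme, farthest at -0.94), 0.093 for arginine synthesis (ARG1 at 0.62), 0.12 for glycine and heme entry (GCV1 at 0.61) and 0.015 for cofactor enzymes (NDE1 at 0.93). They were 0.10 for ATP synthase subunits (ATP17 at 0.27), -0.19 for nucleotide users (YNK1 at -0.49), -0.33 for fusion partners of UGO1 (PCP1 at -0.44) and -0.17 for peroxisomal partners of ANT1 (PXA2 at -0.38).

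**Figure D4:**
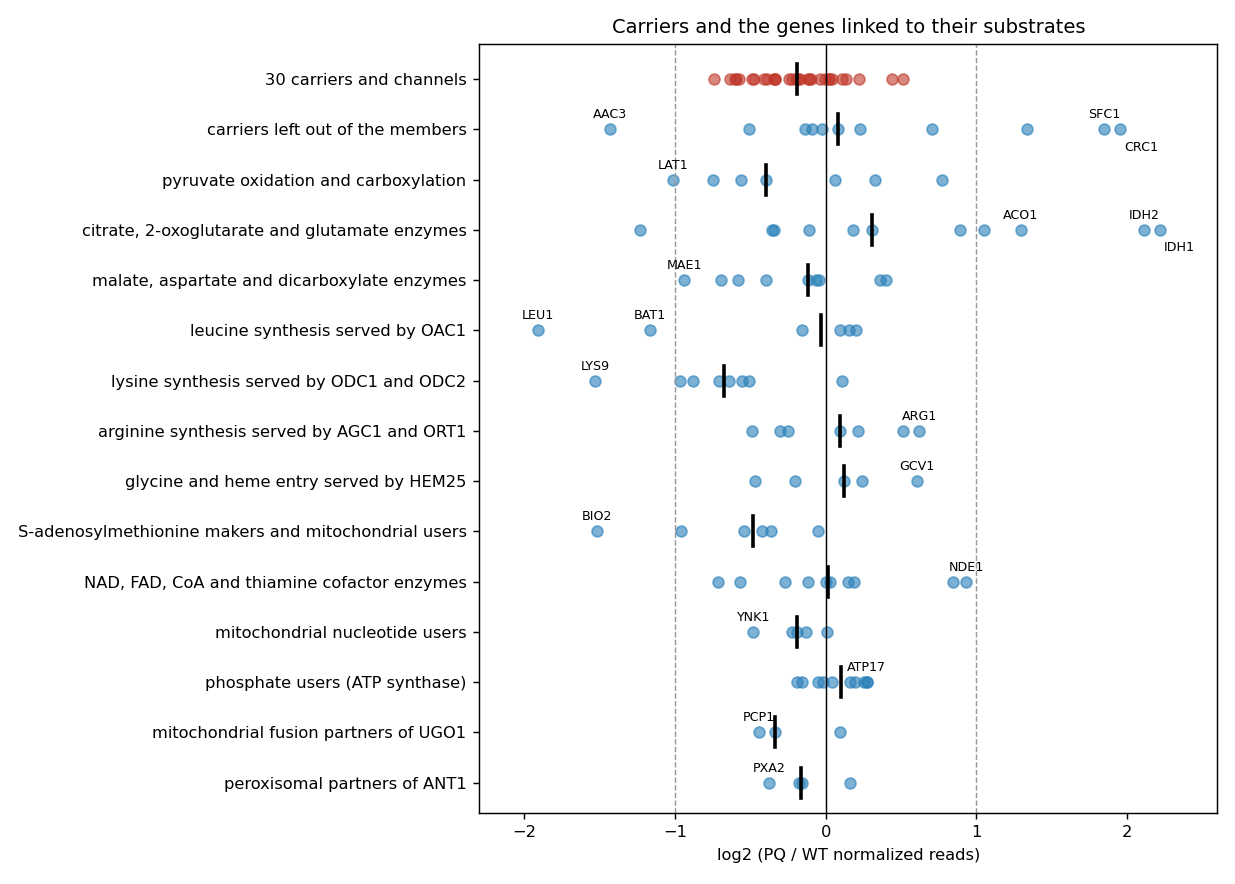
Log2 ratio of PQ to WT normalized reads (x axis) for each gene (points) of the 30 carriers and channels and of 14 lists of other carriers and substrate-linked genes (y axis). Short vertical lines are list medians and dashed lines mark 2-fold. The carriers and channels lie inside the 2-fold lines, while IDH1 and IDH2 reach beyond 2 and LEU1 lies at -1.91.

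Change also moved with level over all genes, mostly at both ends of the range. With genes cut into 10 classes of mean level, the lowest class had a median of 0.27 on the log2 scale and the highest a median of -0.31. Medians of classes 3 to 9 lay between 0.041 and -0.087. Members sat in all 10 classes, and relative to their own class 22 of 30 lay below, against 49.9% of all genes, with a median of -0.23. For OAC1, YHM2 and AGC1 the centred values were -0.55, -0.56 and -0.59, and for PIC2 0.60. MPC2, in the highest class, stood at 0.35 relative to it, beside 0.039 under the deposited scaling.

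**Figure D5:**
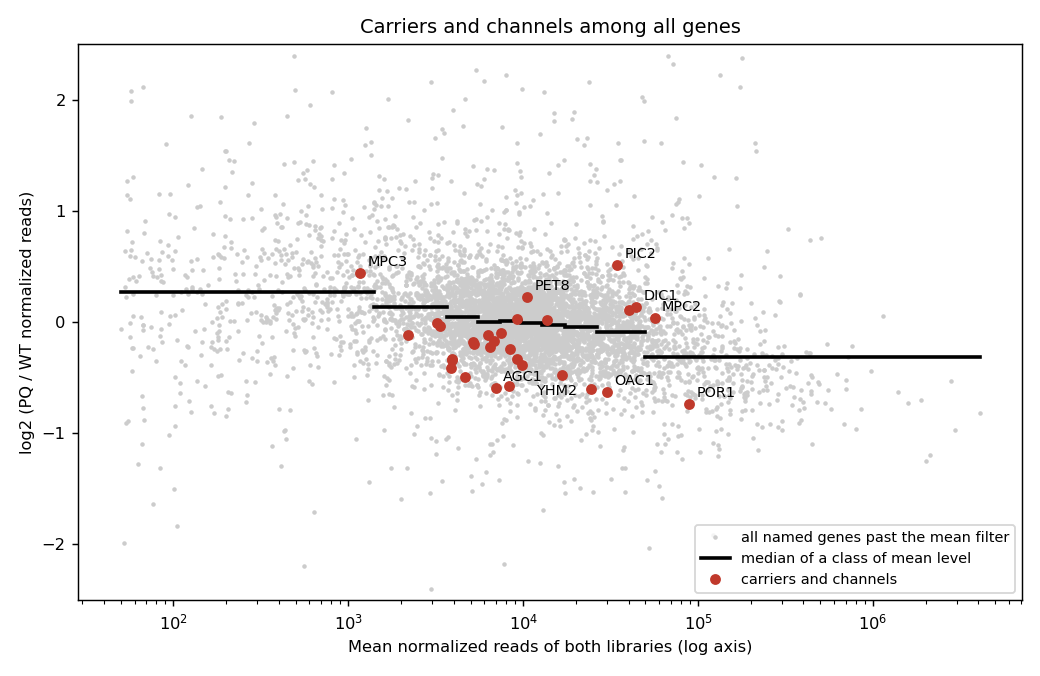
Log2 ratio of PQ to WT normalized reads (y axis) against the mean normalized reads of both libraries (x axis, log scale) for all genes past the filter (grey) and the 30 members (red), with black lines for the median of each class of mean level. The y axis leaves out 14 genes beyond 2.5 on the log2 scale. Class medians are 0.27 in the lowest class, 0.041 to -0.087 in classes 3 to 9 and -0.31 in the highest.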

How the data were processed

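The deposited table gives, for each gene, a signal in either library that the authors had normalized. Every value is a whole multiple, within 0.01 read, of 1 step per column (0.913 units in PQ, 1.10 in WT), so reads were recovered by division. The deposited log2 values match the log2 ratio of PQ to WT within 8.38e-05, and the p-value columns are the authors' deposited ones. The submitters' processing notes list DESeq2, featureCounts, Subread 1.5.2, STAR 2.5.2b and Trimmomatic 0.36, without roles. The genome build is not given in the sources used here, so no coordinates, sequences or promoter motifs are given.

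The 1 row without a name (0.00675% of PQ and 0.00449% of WT reads) was left out. Of the named rows 5923 matched the RefSeq R64 annotation, used for names, gene length, overlaps and, with BLAST+ 2.17.0, near-identical copies (95% identity over 80% of length). LEU2, on the leucine list, was not found among the named rows, so that list was counted over 6 genes. With 1 library per group, genes were counted by fold (2, alternatively 1.5) where the mean of both libraries reached 50 normalized reads, and no test was run. Named genes were all members and, per list, up to 3 past 2-fold farthest from 0, or the 1 farthest where none passed. The members, lists and thresholds were chosen with earlier results of these data known. Fold counting and intervals were tested on simulated counts. Computation used scipy 1.17.1, pandas 2.3.3, numpy 2.4.6 and matplotlib 3.10.9 under Python 3.11.15.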

Additional observations from a re-analysis of the deposited data

How the results depend on the processing

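The counts of members at least 2-fold higher and lower stayed at 0 under total read scaling. They also did with centring on the median gene or on the expression class. They were 0 too with pseudocounts of 1 and 10, no minimum mean, protein-coding genes only and counting intervals wholly past 2-fold. Those last settings could not have raised the counts. All 30 members had passed the minimum mean, and the other settings can only keep or lower a count. Leaving out genes that share reads removed no member. At 1.5-fold the lower count was 4. The members' median of -0.19 became 0.068 when scaled to total reads and -0.23 with class centring. MPC3 minus MPC2 turned to -0.18 with class centring, where MPC2 is set against genes lower by median and MPC3 against genes higher by median. Pseudocounts moved no member's log2 change by more than 0.00379. No paired analysis was possible because each group has 1 library. Counting error alone leaves the direction of 4 members unsettled under the deposited scaling. Total read scaling turned the sign of 10 of the 22 lower members, so intervals that leave out a ratio of 1 do not settle direction. The spread between cultures could not be estimated for any member.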
